A study of Mus musculus with 18 samples.

Results

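Myh11, Actg2, Acta2, Tagln, Cnn1, Des, Smtn, Lmod1, Synm and Synpo2 encode parts of the contractile apparatus of smooth muscle, and their RNA was followed gene by gene through bulk, single-nucleus, single-cell and spatial profiles of the mouse bladder. The members were listed by name, with no threshold on a level. They are 10 of the 26344 genes common to the droplet-based tables (mitochondrially encoded genes left out) and of the 29214 genes of the bulk table. All 10 were found in every table, and all 10 passed the filter on low counts in every comparison.

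Smooth muscle shortens when myosin filaments pull on actin filaments that are anchored in dense bodies and at the cell membrane, and a scaffold of intermediate filaments ties these anchors together. In the bladder, the detrusor, the muscular wall that expels urine, is built of such cells. Mural cells (pericytes and the smooth muscle of small vessels) carry part of the same apparatus, and fibroblasts that take on a contractile state are known for making the smooth muscle isoform of actin. Many of these genes share a regulator, serum response factor, which binds the CArG box, a short motif rich in A and T.

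The study made an atlas of the bladder of C57BL/6 mice in 18 samples of 11 groups. Whole-bladder cells were taken at 3 months (3 males), at 12 months (2 libraries, each pooling 2 females with 2 males), at 22 months (3 males) and at 24 months (2 females with 2 males). Nuclei were taken at 12 months (2 females with 2 males). At 14 months the detrusor alone was dissociated from 3 females, and a detrusor-enriched preparation of whole bladder was made from 2 females with 2 males. Spatial sections, where a slide with barcoded spots takes up the RNA of the tissue above it, were cut from males at 22 months (2 sections) and 14 months (2 sections), each section labelled with 4 males. Bulk RNA came from females of 12 months, as 3 libraries of intact bladder and 3 of bladder dissociated into cells. The labels name no transgene and no agent. Animals were pooled within a library, and every droplet group apart from the 12-month whole bladder is 1 library, so those values have no replicate check. Nothing in the labels says that the libraries of a bulk or section group came from separate animals, and p-values then measure only the spread between these libraries.

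Bulk libraries held 23083752 to 68760791 reads, droplet libraries 5197910 (nuclei) to 55374101 unique molecular identifiers (UMIs, counted molecules), and sections 21976101 to 32021223 UMIs. Levels are given as CPM, counts scaled to the same total in every library or cell class. They were compared for 1 gene between samples or classes and never between genes, since transcript lengths were not at hand. Cells were clustered without the 10 genes and named from other markers, so the levels of the 10 genes in a class did not enter its name directly. The muscle markers include genes that ran closely with members across classes, such as Myl9 with Acta2 (Pearson's r 0.972) and Mylk with Myh11 (0.937). Clusters with close scores for muscle and mural markers stayed unnamed. Differences of the 10 genes between these classes are therefore not independent of the naming. A class is called "like" the cell type whose markers it carried. Smooth-muscle-like cells were found in 3 libraries: 1374 of 3375 nuclei, 171 of 5379 detrusor-only cells and 59 of 5158 detrusor-enriched cells. The detrusor-only library thus held far more fibroblast-like cells (3186) than muscle cells. Mural-like cells were found in 4 libraries: 266 detrusor-only, 120 detrusor-enriched, 117 from the 22-month and 20 from the 3-month males. The 59 muscle cells of the detrusor-enriched library were shallow, with a median of 1482 UMIs against 17417 for the 171 detrusor-only cells and 4907 for the mural-like cells beside them, and each share of the muscle level given for that library rests on them. The mural-like classes of the 2 detrusor libraries also held different clusters: a cluster led by Rgs5 or Kcnj8 in both, and a second one led by Pln (97 cells) in the detrusor-only library, while a cluster led by Pln in the other library (105 cells) stayed unnamed. No mural-like nuclei and no smooth-muscle-like cells of the whole-bladder libraries reached the minimum of 20. Immune-like cells, which do not build this apparatus, served as the measure of free RNA in each library. At most 64 cell barcodes were shared by any pair of libraries.

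The upstream sequence is shown for the 3 genes in which a search found a CArG-like box, so that its letters can be read beside the levels. RefSeq windows of 250 bases before the start site (GRCm38.p6, the mm10 build that the files use) were at hand for 7 of the 10 genes; Actg2, Myh11 and Tagln had none. Both strands were searched for the CArG box, which is its own reverse complement. None of the 7 windows held an exact box, which 1.48% of 32544 such windows did. With 1 mismatch allowed, 3 of the 7 held at least 1 box, against 18.6% of all windows, and 2 held at least 2, against 2.97%. The boxes are in capitals. Acta2 is shown as the 30 bases around each box, because its window lies mostly within the annotated span of the gene. The boxes are on the minus strand at chr19:34255438-34255467 (84 bases before the start) and chr19:34255388-34255417 (34 bases before it). Both boxes lie inside that span, since the start from which this window was counted is an internal one. Lmod1 is shown on the plus strand at chr1:135324563-135324812, with boxes 189 and 164 bases before the start. Synm is shown on the minus strand at chr7:67759743-67759992, with its box 239 bases before the start. A match describes the letters of the window and is not a measured binding site.
Acta2, distal box: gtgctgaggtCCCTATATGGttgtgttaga
Acta2, proximal box: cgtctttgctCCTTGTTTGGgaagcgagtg
Lmod1: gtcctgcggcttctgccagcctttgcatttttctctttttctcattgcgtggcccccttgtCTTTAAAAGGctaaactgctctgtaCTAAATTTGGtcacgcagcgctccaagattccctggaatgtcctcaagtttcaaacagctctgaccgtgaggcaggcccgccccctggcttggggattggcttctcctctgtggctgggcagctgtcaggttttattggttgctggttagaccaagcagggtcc
Synm: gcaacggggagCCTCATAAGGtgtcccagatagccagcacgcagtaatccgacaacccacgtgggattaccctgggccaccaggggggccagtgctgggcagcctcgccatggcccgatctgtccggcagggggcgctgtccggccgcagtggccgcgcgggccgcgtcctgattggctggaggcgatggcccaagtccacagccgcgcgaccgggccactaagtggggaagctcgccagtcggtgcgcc

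The share of this RNA differed widely between preparations of the bladder that were counted in the same way. Bulk shares are of reads and the others of UMIs, and these 2 kinds are not to be compared. Myh11, for one, made 32% of the 10 genes in intact bulk library 1 and 8.46% in the first 22-month section. The 10 genes together took 4.51%, 4.49% and 4.33% of the reads of the intact bulk libraries, against 0.352%, 0.316% and 0.231% in the dissociated ones. They took 1.65% to 2.34% of the UMIs of the 4 sections and 2.28% of those of the nuclei. Detrusor-only cells gave 0.818% and detrusor-enriched cells 0.336%. The whole-bladder cell libraries were lowest, at 0.196% in the 22-month males, 0.0277% at 3 months, 0.0273% at 24 months and 0.0109% and 0.0065% at 12 months. The 22-month male library thus stood above the other whole-bladder cell libraries.

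All 10 genes were lower in dissociated than in intact bladder (edgeR quasi-likelihood test with Benjamini-Hochberg adjustment, threshold 0.05), where 31.3% of the 16538 genes tested were called lower and 59.2% were called in either direction. The median log2 fold change of the 10 was -3.94, against -0.03 over all genes tested. For every gene the 3 intact libraries lay above the 3 dissociated libraries without overlap. The log2 fold changes ranged from -3.04 for Smtn to -4.36 for Actg2, and the count stayed at 10 of 10 under every alternative setting run on the bulk libraries. In bulk tissue, fewer cells of a type and less RNA per cell cannot be told apart. Marker lists moved beside them: all 16 muscle markers outside the 10 were lower (median -3.53), all 12 fibroblast markers were higher (median 1.45), and of 12 mural markers 4 were higher and 4 lower (median -0.19). Adipocyte markers fell further than the 10, with all 6 lower (median -4.68), and 5 of 8 Schwann markers were lower and 1 higher (median -0.49). Of the endothelial markers 11 of 13 were higher, and of the immune markers 10 of 16. A list of 29 genes known to respond to dissociation had 28 higher (median 4.22).

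**Figure D1:**
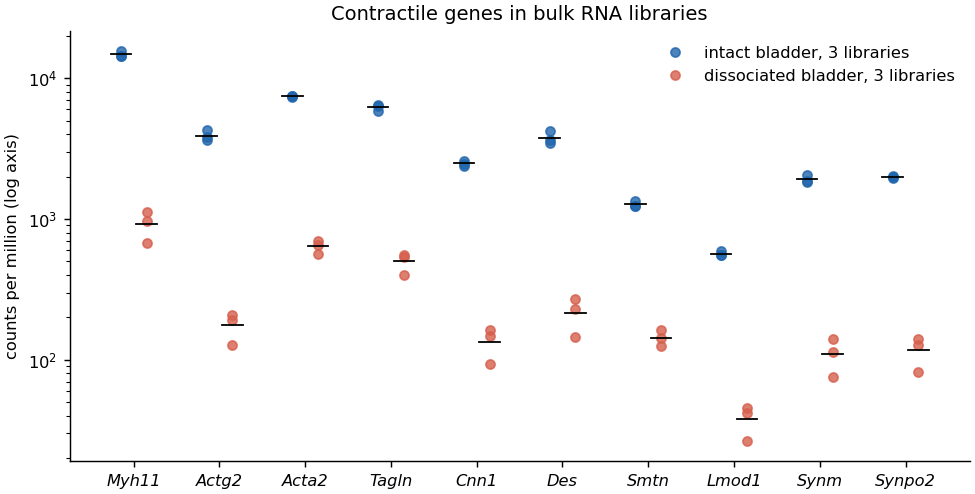
CPM (log axis) of the 10 genes in each of the 3 intact (blue) and 3 dissociated (red) bulk libraries, with horizontal bars at the group means. For every gene the 3 intact libraries lie above the 3 dissociated ones, and heights are not comparable between genes because transcript lengths differ.

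Acta2, the alpha actin of vascular and visceral smooth muscle (chr19:34240336-34255585), was read at 7505, 7363 and 7540 CPM in the intact and 703, 650 and 564 CPM in the dissociated bulk libraries. The groups lay far apart (log2 fold change -3.44, SE 0.12, adjusted p = 1.14e-06). Sections held 5047 and 4216 CPM at 22 months and 5786 and 4265 CPM at 14 months, and nuclei held 4715 CPM. Detrusor-only cells held 2290 CPM and detrusor-enriched cells 1100 CPM, and the whole-bladder libraries 169.9 (3 months), 47.2 and 29.7 (12 months), 1075 (22 months) and 144.8 CPM (24 months). Among whole-bladder cells the 22-month male library came closest to the detrusor preparations, just below the detrusor-enriched level. Within classes, Acta2 was held by mural-like as well as muscle cells. Mural-like cells held 7179 CPM against 19760 CPM in smooth-muscle-like cells of the detrusor-only library (36.3%), and 4607 against 14320 CPM in the detrusor-enriched library (32.2%). The 117 mural-like cells of the 22-month males held 19060 CPM, between the muscle levels of the 2 detrusor libraries. Fibroblast-like cells held 0.929% of the muscle level in the detrusor-only library, where immune-like cells held 1.01%, so no fibroblast signal was detectable there above free RNA. In the detrusor-enriched library the shares were 3.94% and 0.748%.

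Actg2, the gamma actin of visceral smooth muscle (chr6:83512909-83536251), was read at 4270, 3620 and 3808 CPM in the intact and 209.4, 192.5 and 128.1 CPM in the dissociated bulk libraries. This was the deepest fall of the 10 genes (log2 fold change -4.36, SE 0.20, adjusted p = 3.48e-06). Sections held 3145 and 4378 CPM at 22 months and 3073 and 1699 CPM at 14 months, nuclei 3561 CPM, detrusor-only cells 775 CPM and detrusor-enriched cells 219 CPM. Whole-bladder cells held 9.26 CPM at 3 months, 7.57 and 2.18 at 12 months, 263.3 at 22 months and 13.9 at 24 months. In contrast to Acta2, little of it was in mural-like cells: 313.8 CPM (95% exact Poisson interval 288.2 to 341) against 7958 CPM in smooth-muscle-like cells of the detrusor-only library, or 3.94%, and 380 against 6004 CPM in the detrusor-enriched library, or 6.33%. Immune-like cells held 129.5 and 42.0 CPM in the same libraries. These intervals cover counting error only. After thinning to 700 UMIs per cell, 94.2% of the smooth-muscle-like, 18.4% of the mural-like and 13.3% of the immune-like detrusor-only cells held an Actg2 UMI (without thinning 100%, 68.4% and 58%, at median depths of 17417, 6663 and 7422 UMIs). The thinned mural share had an exact interval of 13.9% to 23.6% and lay close to that of immune-like cells, whose interval was 10.5% to 16.4% (535 of 548 immune-like cells were deep enough to thin). In the detrusor-enriched library the thinned shares were 80.4%, 25.9% and 3.81%. As a part of the UMIs of the 10 genes, Actg2 made 10.6% to 15.3% in smooth-muscle-like cells of 3 libraries and 0% to 3.13% in mural-like cells of 4, the 0 resting on 94 UMIs of the 10 genes in 20 cells.

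Myh11, the smooth muscle myosin heavy chain that pulls on the actin filament (chr16:14194527-14292188), was read at 14430, 15680 and 14460 CPM in the intact and 1127, 970.9 and 676.6 CPM in the dissociated bulk libraries. The groups did not overlap (log2 fold change -3.90, SE 0.20, adjusted p = 4.97e-06). Sections held 1763 and 1321 CPM at 22 months and 1586 and 1225 CPM at 14 months, nuclei 4487 CPM, detrusor-only cells 1077 CPM and detrusor-enriched cells 437.6 CPM. Whole-bladder cells held 4.82, 5.44, 3.05, 46.1 and 10.7 CPM at 3, 12, 12, 22 and 24 months. Mural-like cells held 2585 against 7486 CPM in muscle of the detrusor-only library (34.5%) and 1085 against 6814 CPM in the detrusor-enriched library (15.9%). The Rgs5-led cluster alone held 14.6% in the detrusor-only library and the Pln-led cluster 60.8%. Between the clusters led by Rgs5 or Kcnj8 the 2 libraries thus lay close for Myh11, as they did for Des (13.2% against 14.7%). This did not hold for every gene: Acta2 made 19.8% against 32.2% and Cnn1 3.82% against 7.76%.

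Tagln, an actin-binding protein also called transgelin (chr9:45929628-45936058), was read at 6317, 6466 and 5884 CPM in the intact and 558.7, 541.2 and 398.6 CPM in the dissociated bulk libraries (log2 fold change -3.53, SE 0.15, adjusted p = 2.38e-06). It ran beside Acta2 in the classes, with 33.8% of the muscle level in mural-like cells of the detrusor-only library (6551 against 19380 CPM) and 25.4% in the detrusor-enriched library (4256 against 16740 CPM). Cnn1, calponin, which binds actin and slows the myosin motor (chr9:22099221-22109221), was read at 2596, 2479 and 2365 against 162.3, 148.1 and 92.8 CPM in bulk (log2 fold change -4.10, SE 0.21, adjusted p = 5.79e-06). Its mural share was low, as was that of Actg2. Mural-like cells held 263.9 CPM (interval 240.5 to 289), or 5.18% of the muscle level of 5093 CPM, and 261.1 CPM, or 7.76% of 3366 CPM. In whole-bladder cells Cnn1 ran from 0.287 CPM in the second 12-month library, where it rested on 5 UMIs, to 42.3 CPM in the 22-month males, where it rested on 1093. Smtn, smoothelin, an actin-binding protein of contractile smooth muscle (chr11:3517522-3539292), was read at 1345, 1239 and 1238 against 161.7, 143.3 and 124.6 CPM in bulk, the shallowest fall (log2 fold change -3.04, SE 0.12, adjusted p = 1.94e-06). Its mural-like level was 117.8 CPM (14.1% of muscle) and 60.98 CPM (8.31%).

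Lmod1, leiomodin, which starts new actin filaments in smooth muscle (chr1:135324813-135368065), was read at 588.9, 551.4 and 555.7 CPM in the intact and 45.4, 41.9 and 26.3 CPM in the dissociated bulk libraries (log2 fold change -3.79, SE 0.20, adjusted p = 6.34e-06). Of the 10 genes it had the smallest gap between muscle and mural cells: 699.4 CPM (interval 661 to 739.6) in mural-like against 1037 CPM (1002 to 1074) in smooth-muscle-like cells of the detrusor-only library, and 375.3 against 794.3 CPM in the detrusor-enriched library. Mural-like cells thus held 67.4% and 47.2% of the muscle level, where the first value joins 42% in the Rgs5-led and 101% in the Pln-led cluster of the detrusor-only library. Immune-like cells held 14.7 and 5.66 CPM. Thinned to 700 UMIs, 49.7% of smooth-muscle-like, 36.5% of mural-like and 0.748% of immune-like detrusor-only cells held a Lmod1 UMI, against 99.4%, 85.7% and 10.4% without thinning.

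Des, desmin, the main intermediate filament of muscle (chr1:75360292-75368579), was read at 4207, 3469 and 3659 CPM in the intact and 269.1, 230.2 and 144.6 CPM in the dissociated bulk libraries (log2 fold change -4.03, SE 0.24, adjusted p = 1.14e-05). Mural-like cells held 1126 against 7348 CPM (15.3%) and 820.9 against 5602 CPM (14.7%). This was the closest match between the whole mural-like classes of the 2 detrusor libraries, which held different clusters. The first value joins 13.2% in the Rgs5-led and 18.1% in the Pln-led cluster. Synm, synemin, which joins desmin filaments to membrane complexes (chr7:67730161-67759742), was read at 1867, 2045 and 1838 against 140, 112.8 and 75.9 CPM in bulk (log2 fold change -4.02, SE 0.22, adjusted p = 8.05e-06). Its mural-like level was 134.8 CPM, or 10.4% of the muscle level of 1299 CPM, in the detrusor-only library. In the detrusor-enriched library it was 17.2 CPM (interval 8.59 to 30.8), or 1.37% of 1251 CPM, beside 13.7 CPM in immune-like cells, so no mural signal was detectable there. Synpo2, an actin-bundling protein of dense bodies (chr3:123076519-123236168), was read at 1999, 2029 and 1952 against 141.2, 128 and 81.4 CPM in bulk (log2 fold change -3.98, SE 0.20, adjusted p = 5.47e-06). Mural-like cells held 253.7 against 958 CPM (26.5%) and 272.1 against 1190 CPM (22.9%).

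**Figure D2:**
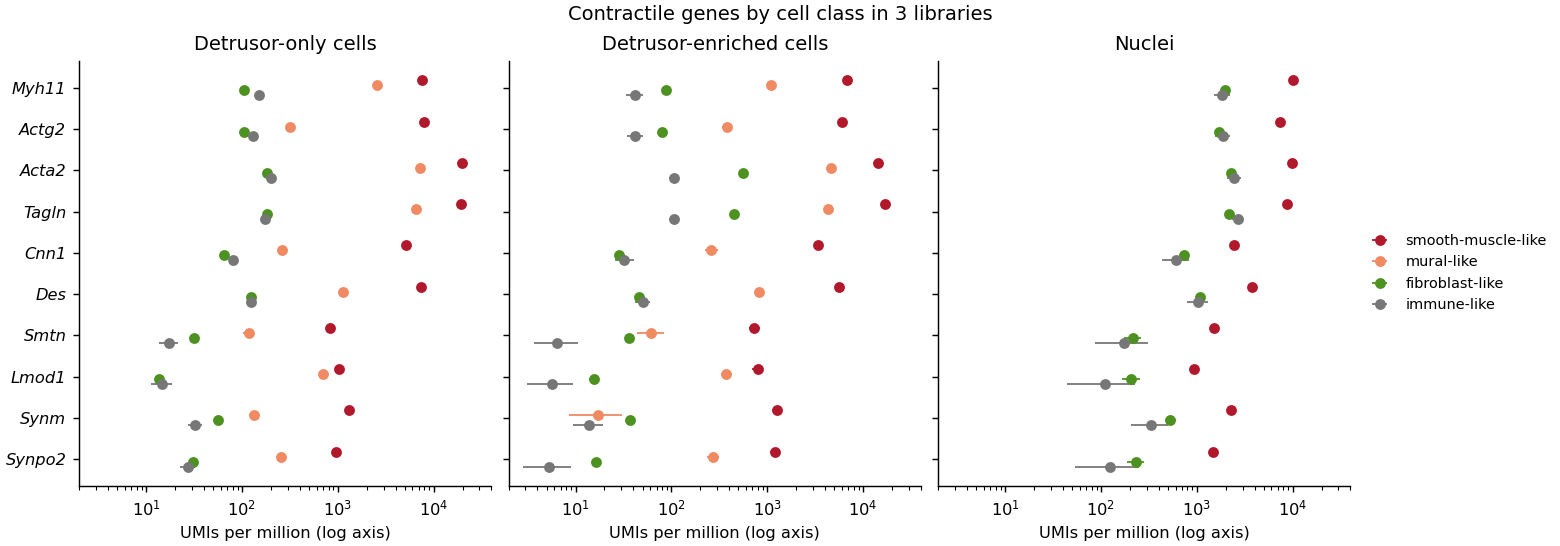
CPM (log axis) of the 10 genes in 4 cell classes of the detrusor-only cells, detrusor-enriched cells and nuclei, with 95% exact Poisson intervals that cover counting error only. Mural-like points, absent for nuclei, lie nearest to the muscle points for Lmod1, followed by Acta2, and farthest below them for Actg2, Cnn1 and Synm. Fibroblast-like and immune-like nuclei lie well above the same classes of the cell libraries.

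Across all 45 profiles of a class in a library, with library as a term, 4 of the 10 genes were higher in smooth-muscle-like than in mural-like cells, where 8.35% of 13715 genes were called higher, 6.99% lower and 15.3% in either direction. These were Synm (log2 fold difference 3.34, SE 0.71, adjusted p = 0.000666), Actg2 (3.33, SE 0.76, 0.00145), Smtn (2.41, SE 0.41, 2.41e-05) and Cnn1 (2.26, SE 0.77, 0.0388), each p from edgeR's quasi-likelihood test with Benjamini-Hochberg adjustment. The median of the 10 was 1.45, against 0.18 over all genes. Synpo2 (1.50, adjusted p = 0.0934), Myh11 (1.40, 0.132), Des (1.20, 0.275), Tagln (1.01, 0.487), Acta2 (0.58, 0.68) and Lmod1 (0.17, 0.939) did not pass, which does not show that they are equal in the 2 classes. Only the 2 detrusor libraries held both classes, and the calls moved with the libraries: 7 passed without the nuclei, with Myh11, Synpo2 and Des added (adjusted p = 0.0139, 0.00688 and 0.0483), 2 without the detrusor-only library (Smtn and Synm) and 1 without the detrusor-enriched library (Smtn). Without the 22-month males 5 passed, with Des added (adjusted p = 0.0276). Cnn1 was the least stable call: it was lost in 9 of 14 alternatives, which were relative log expression factors, DESeq2, at least 50 cells per profile and the fits without either detrusor library, the 3-month, either 12-month or the 24-month library (adjusted p from 0.0532 to 0.595). Of the 4 called genes Smtn alone passed in all 14. Of all calls, 54.4% were higher in muscle with the normalization used, 41.9% with relative log expression factors and 38.7% with DESeq2.

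**Figure D3:**
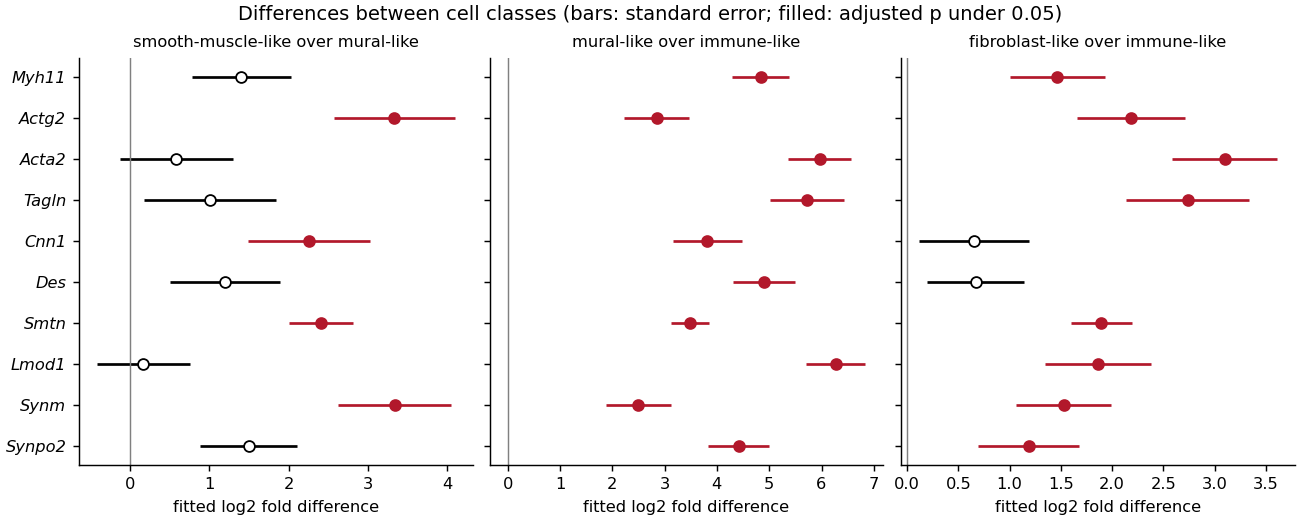
Fitted log2 fold differences of the 10 genes between classes, with bars of 1 standard error; filled points have an adjusted p under 0.05. In the first panel 4 genes are filled, in the middle panel all 10, and in the last panel 8, with Cnn1 and Des open.

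All 10 genes were higher in mural-like than in immune-like cells (19% of genes called higher, 42.7% in either direction), by 2.50 (Synm) to 6.27 (Lmod1) on the log2 scale. This contrast rests on the same counts as the class levels, so its order is not a separate result. Lmod1, Acta2 (5.96) and Tagln (5.72) lay at the top, with Des (4.89), Myh11 (4.84) and Synpo2 (4.41) between. Synm, Actg2 (2.85), Smtn (3.48) and Cnn1 (3.81) lay at the bottom. All 10 were higher in smooth-muscle-like than in fibroblast-like cells (12.4% of genes called higher, 28.3% in either direction), from 3.45 for Acta2 through Tagln, Smtn and Actg2 (each 3.99), Synm (4.31), Lmod1 (4.57), Synpo2 (4.73), Myh11 (4.77) and Cnn1 (5.42) to 5.42 for Des. Both counts were 10 of 10 in every alternative run. The 16 muscle markers outside the 10 were likewise all higher in mural-like than in immune-like cells (median 4.16), and 14 of the 16 were higher in mural-like than in fibroblast-like cells (median 2.31). Against fibroblast-like cells, mural-like cells were higher in 8 of 10 genes (8.55% called higher, 23.4% in either direction); the called genes were Lmod1 (4.41), Des (4.23), Myh11 (3.37), Synpo2 (3.23), Cnn1 (3.16), Tagln (2.98), Acta2 (2.86) and Smtn (1.59), and the exceptions Actg2 (0.66, adjusted p = 0.539) and Synm (0.97, adjusted p = 0.283). Smtn was lost there without the 22-month males (adjusted p = 0.0937). Of all calls in this contrast 36.5% were higher in mural-like cells, 47.1% with relative log expression factors and 51.8% with DESeq2.

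The mural-like cells were not of one kind in their levels. In the detrusor-only library a cluster of 97 cells led by Pln, Nrip2 and Rergl held 11470 CPM of Acta2, 4552 of Myh11 and 1047 of Lmod1. A cluster of 169 cells led by Rgs5, Colec11 and Kcnj8 held 3919, 1093 and 435 CPM of the same genes. As shares of the muscle level, Acta2 made 58% in the first and 19.8% in the second, Smtn 25.8% and 5.26%, and Synm 20.5% and 2.68%. Actg2 and Synpo2 ran the other way, at 217.9 and 223.1 CPM in the first and 386.5 and 277 CPM in the second. A further cluster of 109 cells, led by Sncg, Dgkb and Sorbs2, carried both marker lists and was left unnamed. It held 14990 CPM of Acta2, 12940 of Tagln and 4351 of Myh11, close to or within reach of the muscle level, but 402.5 CPM of Actg2. The unnamed cluster of 105 detrusor-enriched cells led by Pln held 16080 CPM of Acta2, 5987 of Myh11 and 490.5 of Actg2. In these 2 unnamed clusters Actg2 lay nearer to the mural-like than to the muscle level. Another unnamed cluster with both marker lists differed: 80 shallow detrusor-only cells (median 1058 UMIs), with Pdlim3 and Carmn among their leading genes, held 3211 CPM of Actg2, 5842 of Acta2, 4930 of Myh11 and 393.6 of Lmod1. Small unnamed clusters of the 24-month (18 cells) and the first 12-month library (12 cells) held 1271 and 245 CPM of Actg2 beside 19020 and 12990 CPM of Acta2. The unnamed clusters entered no class comparison, and whether naming them differently would move the calls was not tested.

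Of 35 listed light chains, tropomyosins, kinases, phosphatase subunits and adhesion proteins, 15 were higher and 5 lower in smooth-muscle-like than in mural-like cells (median log2 fold difference 0.88), against 8.35% and 6.99% of all genes. Without the 6 that also served as markers of the muscle class, 12 of 29 were higher and 5 lower. With relative log expression factors 12 of the 35 were higher and 6 lower, and with DESeq2 10 and 5. The largest differences were in Csrp1 (2.66), an actin-bundling LIM protein, Pdlim3 (2.54), a LIM protein of the actin anchor, and Mylk (1.85), the kinase that switches myosin on. All 3 were among the markers that named the muscle class, and Mylk was lost with relative log expression factors and DESeq2 (adjusted p = 0.0631 and 0.0763) and Pdlim3 with DESeq2 (adjusted p = 0.0517). The lower members were led by Vim (-2.21), the vimentin filament of mesenchymal cells, Itga7 (-1.88), a laminin receptor subunit, and Rock1 (-1.40), a kinase that promotes actomyosin contraction; Itga7 was lost with DESeq2 (adjusted p = 0.0802). Of 7 other actins and myosins 3 were higher in muscle, the skeletal alpha actin Acta1 (4.52) and the cytoplasmic actins Actb (1.23) and Actg1 (1.21), and 1 was lower, the non-muscle myosin heavy chain Myh9 (-1.62, adjusted p = 0.00176). These 4 calls held with relative log expression factors and with DESeq2. In bulk, 27 of the 35 companions were lower and 5 higher in dissociated bladder (median -1.20), against 31.3% of all genes lower, and without the 6 muscle class markers 21 of 29 were lower. The list had the deepest falls in Pdlim3 (-3.64), Mylk (-3.57) and Myl9 (-3.50), a myosin light chain, and the largest rises in Vim (1.46), Tpm4 (1.34), a cytoplasmic tropomyosin, and Rock1 (0.90).

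In fibroblast-like cells the levels were low and the separation from free RNA differed by gene. Of the 10 genes, 8 were higher in fibroblast-like than in immune-like cells, where 30.7% of genes were called higher and 58.6% in either direction. Of the 16 muscle markers outside the 10, 8 were also higher (median 0.98), as were 5 of 12 mural markers (median 0.074), and their part in the members' calls was not tested. Acta2 led (log2 fold difference 3.10, SE 0.51, adjusted p = 1.46e-06), followed by Tagln (2.74, adjusted p = 0.000151) and Actg2 (2.19, adjusted p = 0.000444). Smtn (1.89), Lmod1 (1.86), Synm (1.53), Myh11 (1.47) and Synpo2 (1.19, adjusted p = 0.037) also passed, and Cnn1 (0.65, adjusted p = 0.307) and Des (0.67, adjusted p = 0.234) did not. Synpo2 was lost in 6 alternatives: relative log expression factors, doublets kept, and the fits without the 22-month, 3-month, first 12-month or detrusor-enriched library (adjusted p = 0.0719, 0.0873, 0.0967, 0.0852, 0.0569 and 0.0531). Acta2 in fibroblast-like cells was read at 314.3 CPM (3 months), 207.5 and 144 CPM (12 months), 1382 CPM (22 months) and 628.9 CPM (24 months), and in immune-like cells of the same libraries at 9.89, 7.31, 7.07, 89.1 and 13.6 CPM. Each fibroblast value exceeded the immune value of its library by over 10 times, and both were highest in the 22-month males. The 2 detrusor preparations differed. In the detrusor-only library the gap closed, at 183.5 and 199.3 CPM, while in the detrusor-enriched library fibroblast-like cells held 564.4 CPM (interval 555.3 to 573.6) against 107.1 CPM (94.6 to 120.8) in immune-like cells. Tagln there was read at 447.5 against 107.5 CPM. Thinned to 700 UMIs, 28.3% of the fibroblast-like and 7.71% of the immune-like cells of the 22-month males held an Acta2 UMI, against 9.40% and 0.612% in the 3-month males (without thinning 42.9%, 21.1%, 14.8% and 1.74%; 138 fibroblast-like and 92 immune-like cells of the 3-month males were too shallow).

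**Figure D4:**
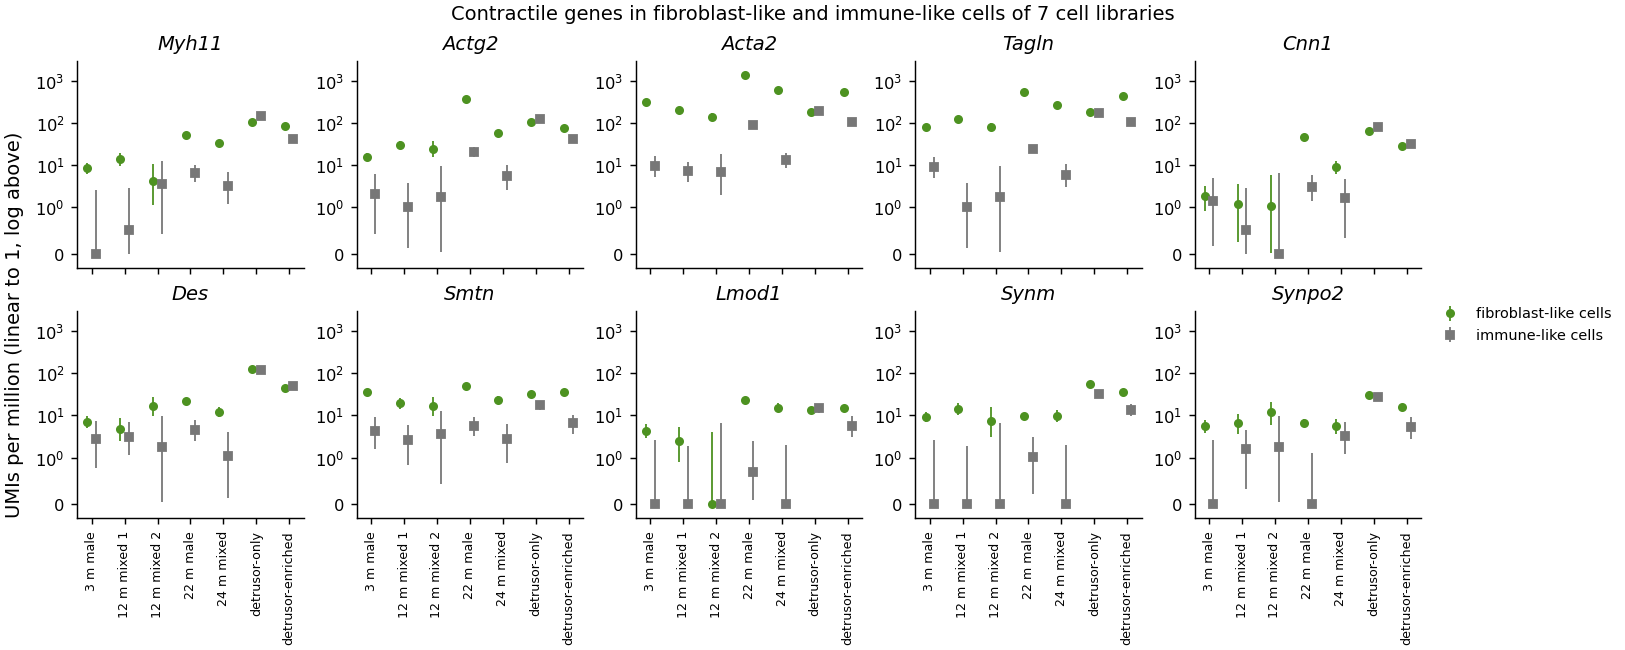
CPM (linear to 1, log above) of the 10 genes in fibroblast-like (green circles) and immune-like cells (grey squares) of the 7 cell libraries, with 95% exact Poisson intervals. Acta2, Tagln and Actg2 are highest in the fibroblast-like cells of the 22-month males, and in the detrusor-only cells the 2 classes lie close together for most genes.

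Fibroblast-like cells were also compared between the whole-bladder libraries of 22 and 24 months, called older, and those of 3 and 12 months, called younger. The fit held the sexes pooled in a library as a covariate. The male libraries also had another gene list (27775 against 27998 genes) and lower depth (medians of 1837 and 2524.5 against 9893 to 15042 UMIs). This sex term therefore cannot be told apart from gene list and depth. In the older cells 2 of the 10 genes were higher. Of 11438 genes tested, 0.0262% were called, that is 3 genes: Acta2, Cnn1 and Fbxl22, which lies outside the 10 and was named after its values had been seen. Cnn1 was read at 1.84, 1.22 and 1.07 CPM in the younger and 46.5 and 8.98 CPM in the older libraries (log2 fold change 4.23, SE 0.44, adjusted p = 0.0421). Few UMIs lay behind the younger Cnn1 values, since all cells of the 3-month library held 20 and all of the second 12-month library 5. The fibroblast-like class of the first 12-month library was 415 cells at a median of 5546 UMIs. For Acta2 the values above gave 1.97 (SE 0.23, adjusted p = 0.0421), and for both genes the groups did not overlap. Tagln, at 79.4, 128.7 and 82.8 against 543.4 and 270.9 CPM, Actg2, at 16.1, 30.9 and 24.7 against 378.3 and 57.8 CPM, and Lmod1, at 4.35, 2.44 and 0 against 22.8 and 15.3 CPM, also did not overlap but did not pass (adjusted p = 1, 1 and 0.225). Neither did Myh11, whose groups also did not overlap (log2 fold change 2.15, adjusted p = 0.695), Des (1.08), Smtn (0.42), Synm (-0.11) and Synpo2 (-0.14), the last 4 with an adjusted p of 1. The 2 calls were lost without the sex term, with doublets kept, and without either 12-month library, and 3 of the 10 passed without the 22-month males (Acta2, Lmod1 and Tagln, but not Cnn1, adjusted p = 0.567), 4 without the 24-month library and 1 (Acta2) without the 3-month males. In the same cells the 16 muscle markers outside the 10 summed to 722 to 1738 CPM in the younger libraries, with 1 to 6 of them at 0, and to 1677 and 2653 CPM in the older, with 2 and 0 at 0. The immune-like levels of Acta2 given above were likewise higher in each older than in every younger library, and highest at 22 months. Their part in the result was not tested.

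Other classes were set against immune-like cells in contrasts added after the class levels had been seen. The counts of members called lay not far above the shares over all genes and are given as values only. Endothelial-like cells were higher in 3 (20.3% of genes called higher, 24.9% lower, 45.2% in either direction): Synm (2.57), Smtn (2.11) and Tagln (2.02). Mesothelial-like cells, the lining of the outer surface, were higher in 4 (22.4% called higher, 25.5% lower, 48% in either direction): Tagln (2.53), Smtn (2.48), Acta2 (2.37) and Synm (1.96). Schwann-like cells, the glia of nerves, were higher in 3 (18.7% called higher, 40.8% in either direction): Synm (2.80), Smtn (1.95) and Lmod1 (1.82). With at least 50 cells per profile, Tagln was lost in endothelial-like and Lmod1 in Schwann-like cells (adjusted p = 0.124 and 0.0753), and Lmod1 also without the detrusor-only library (adjusted p = 0.0582). Mural markers were also higher in these classes, 11 of 12 in endothelial-like (median 2.71), 2 of 12 in mesothelial-like and 3 of 12 in Schwann-like cells, as were 4, 5 and 3 of the 16 muscle markers outside the 10. Schwann-like cells were also shallower than immune-like cells in the detrusor-only (medians of 3009 against 7421.5 UMIs) and the detrusor-enriched library (3946 against 10376 UMIs). In the detrusor-only library they exceeded immune-like cells in all 10 genes, those not called included. As shares of the muscle level, Acta2 made 2.34% against 1.01% and Cnn1 3.27% against 1.59%. The part of these markers and of depth in these values was not tested.

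In nuclei, smooth-muscle-like profiles held 9946 CPM of Acta2, 9977 of Myh11, 8755 of Tagln and 7410 of Actg2. All 10 genes were also present at 14.3% to 30.7% of the muscle level in fibroblast-like nuclei, 15.1% to 31.1% in endothelial-like, 8.43% to 30.8% in immune-like and 5.98% to 13.9% in urothelial-like nuclei. In the 32 Schwann-like nuclei the range was 20.7% to 51.3%. Lmod1, at 51.3% of the muscle level, rested there on 17 UMIs, with an interval of 282.3 to 775.8 CPM against 44.1 to 226.2 CPM in immune-like nuclei. In detrusor-only cells the fibroblast-like range was 0.929% to 4.37% and the immune-like range 0.902% to 2.84%. The counting intervals of fibroblast-like and immune-like nuclei overlapped for all 10 genes. With 65 immune-like nuclei at a median of 858 UMIs, this cannot decide whether fibroblast-like nuclei held these genes above free RNA. Between the single library of smooth-muscle-like nuclei and the 2 of smooth-muscle-like cells, the spread could come from the cells alone. At that limit edgeR called 13.6% of 10741 genes (7.9% higher and 5.71% lower in nuclei) and none of the 10, none of which had an unadjusted p under 0.05, while DESeq2 called 4 lower in nuclei, Tagln, Des, Acta2 and Cnn1. The edgeR estimates ran from -1.43 (Tagln, SE 1.15) through Cnn1 (-1.20), Acta2 and Des (both -1.17), Lmod1 (-0.35), Actg2 (-0.31), Myh11 (0.096), Synpo2 (0.10) and Synm (0.45) to 0.56 (Smtn, SE 0.58). With 1 nuclei library neither the calls nor their absence show how nuclei and cells compare.

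On sections the 10 genes followed the muscle. Spots with at least 500 UMIs (937 to 1317 per section) were split into 4 groups of equal size by the summed level of the 16 muscle markers outside the 10. Acta2 went from 967 to 15730 CPM between the lowest and the highest group of the first 14-month section, from 411 to 12950 in the second, and from 601 to 16330 and 403 to 16410 in the 22-month sections. Actg2 went from 441 to 9412, from 146 to 5340, from 272 to 10950 and from 387 to 17280 CPM. The lowest group therefore held 2.46% to 6.15% of the highest for Acta2 and 2.24% to 4.69% for Actg2. Tagln was the most sharply divided in 3 of the 4 sections (1.76% to 5.16%) and Synm the least in all 4 (4.18% to 8.96%). A spot can hold several cells of different types. The lowest groups were the deepest, with medians of 36299 to 55252 UMIs, and the richest in urothelial markers, while the summed mural markers varied little, from 383 to 610 CPM over all groups and sections.

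**Figure D5:**
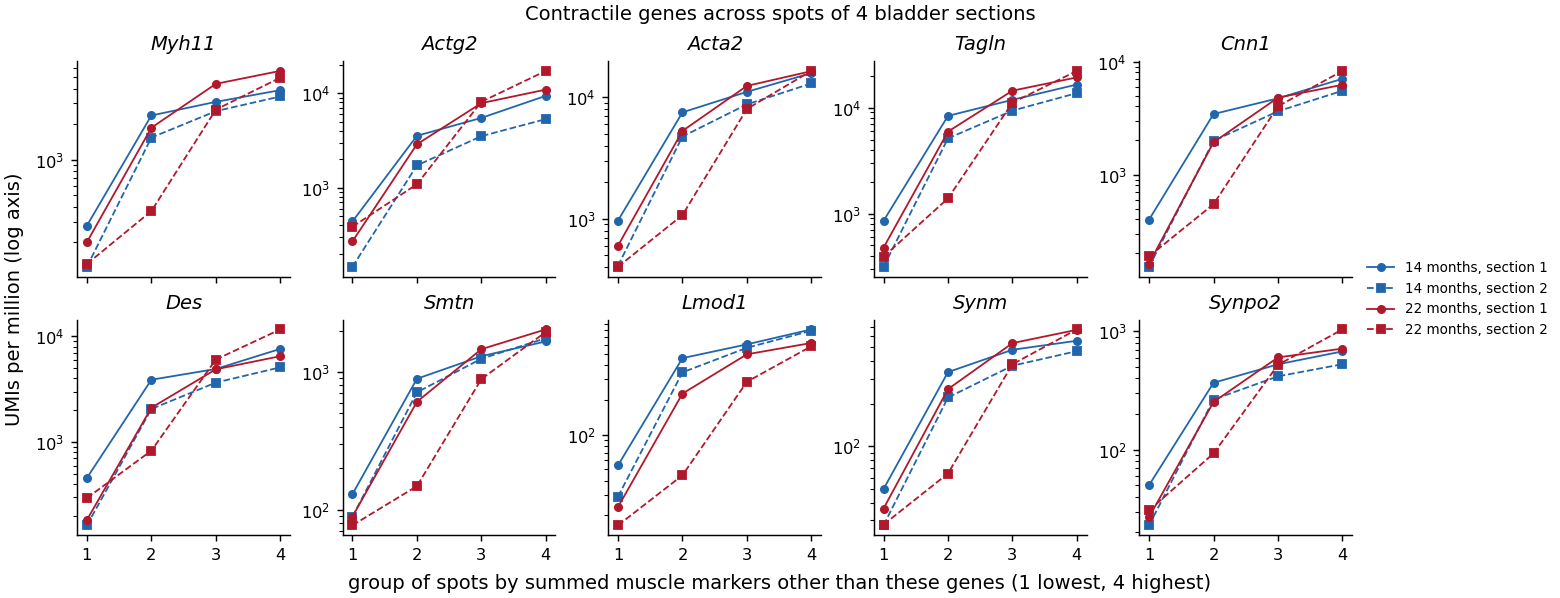
CPM (log axis) of each gene in 4 groups of spots ordered by muscle markers outside the 10 genes, for 2 sections of 14 months (blue) and 2 of 22 months (red). All 10 genes are higher in group 4 than in group 1 of every section, and group 2 of the second 22-month section lies below group 2 of the others.

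Across spots, Spearman's rank correlation with the summed muscle markers was 0.948 to 0.961 for Acta2 and 0.709 to 0.789 for Synm, the ends of the range. With the mural markers it lay between -0.229 and 0.204 for every gene and section, and with the urothelial markers between -0.858 and -0.549. Spots of a section share depth and neighbours, so these values are descriptions. Lmod1 and Acta2, the genes most shared with mural-like cells, had ranges with mural markers (Lmod1 -0.167 to 0.203, Acta2 -0.152 to 0.192) close to that of Actg2 (-0.169 to 0.189). In every section both lay slightly above Actg2, as in the second 22-month section (-0.055 and -0.11 against -0.127). Smtn, which was called higher in muscle than in mural-like cells, also lay above Acta2 in the second 22-month section (-0.059). It did so in both 14-month sections (0.027 against -0.02 and 0.204 against 0.192), but not in the first 22-month section (-0.194 against -0.152). The order across spots thus did not follow the mural share.

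Between sections of 22 and 14 months none of the 10 genes passed in edgeR, as none of 14974 genes did (0% called; 2477 genes had an unadjusted p under 0.05). Lmod1 came nearest, at 200.2 and 152.3 CPM at 22 months against 317.8 and 276.7 CPM at 14 months, with no overlap (log2 fold change -0.70, SE 0.14, unadjusted p = 0.00285, adjusted p = 0.137), and was the 1 member that DESeq2 called (adjusted p = 0.00153). Actg2 had a larger estimate with a wider spread (0.72, SE 0.37, adjusted p = 0.398), and its lowest section of 22 months, 3145 CPM, lay just above its highest of 14 months, 3073 CPM. The other 8 genes had estimates of -0.12 (Smtn), -0.061 (Acta2), -0.053 (Cnn1), 0.049 (Synm), 0.17 (Tagln), 0.19 (Myh11), 0.20 (Synpo2) and 0.22 (Des).

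Likeness between genes was taken as Pearson's r of log2(CPM + 1) across the 45 profiles. Profiles of a library share depth and free RNA, and no test was attached. Myl9, Mylk, Pcp4 and Pdlim3 were among the markers that named the muscle class, so their closeness to members is not independent of how the profiles were formed. Acta2 lay closest to Tagln (0.967), and among other genes to Myl9 (0.972) and Cald1 (0.938), an actin-binding regulator. Actg2 lay closest to Cnn1 (0.912), Fbxl22 (0.923) and Dmpk (0.921). Myh11 and Des were closest to each other (0.947); among other genes Myh11 lay closest to Mylk (0.937) and Fbxl22 (0.928), and Des to Flna (0.923) and Mylk (0.919). Lmod1 lay closest to Myh11 (0.944) and to Mylk (0.933) and Mrvi1 (0.932). Although Lmod1 shared its high mural level with Acta2, it lay nearer to Cnn1 (0.927) than to Acta2 (0.886) by this measure. Tagln's nearest outside genes were Cald1 (0.944) and Mylk (0.929). Cnn1 lay closest to Myh11 (0.941), Pcp4 (0.92) and Tnnt2 (0.905), Smtn to Des (0.903), Pdlim3 (0.931) and Rbpms (0.92), and Synpo2 to Actg2 (0.905), Dmpk (0.936) and Sh3bgr (0.91). Synm stood farthest out: its closest member was Smtn (0.867) its farthest Lmod1 (0.733), and its closest outside genes Svil (0.896) and Ncor1 (0.879).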

How the data were processed

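RNA was measured in 18 bladder samples: 8 droplet libraries, 4 sections and 6 bulk libraries. The deposited files hold counts, made by the authors with Cell Ranger, Space Ranger, featureCounts of Subread and bcl2fastq per the submitters' processing notes, which also name build mm10; versions and parameters are not given in the sources used here. Values were whole numbers with a different total in each sample, and no value column lay outside the labelled samples (0). No cell types or spot positions were used, since the files read here carry none.

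Cells under 500 UMIs or over 20% mitochondrial UMIs were dropped, and the highest-scoring 0.8% of simulated-doublet scores per 1000 barcodes were removed. The remaining cells were clustered per library without the 10 genes (2000 variable genes, 30 principal components, 15 neighbours, Leiden resolution 1) and named from marker lists by rules that were adjusted after the clusters had been seen. Clusters with the markers of 2 classes stayed unnamed, as did 30.2% of detrusor-enriched cells, whose median depth was 630 UMIs. Counts summed per class and library (at least 20 cells), per section or per bulk library were tested with edgeR 4.0.16 (quasi-likelihood, TMM, filterByExpr, two-sided, Benjamini-Hochberg over all genes, threshold 0.05), with DESeq2 1.42.0 as an alternative. The scripts were tested on simulated data. Intervals are 95% exact and cover counting error only. The members and lists were chosen with earlier results of these data known. All 10 genes are named in every comparison, apart from the 3 added contrasts, where the genes called are named. Likeness names, for each, the closest member and the 2 closest other genes with a mean of at least 10 CPM, and companion genes are named by the 3 largest differences in each direction.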

Additional observations from a re-analysis of the deposited data

How the results depend on the processing

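Counts of the 10 genes stayed within 1.5 times the reported count in every alternative for bulk, mural-like against immune-like or fibroblast-like, and fibroblast-like, endothelial-like and mesothelial-like against immune-like cells, and smooth-muscle-like against fibroblast-like cells. The others moved as follows, and the cause was not tested. For smooth-muscle-like against mural-like cells 7 genes were called from cell libraries only, and 1 to 7 when each library was left out. For Schwann-like cells 5 were called from cell libraries only, and 2 to 5 with each library left out. DESeq2 called 1 gene between sections, 4 between nuclei and cells and 5 between older and younger fibroblast-like cells, where 4 were called with no filter, 0 with no sex term, 0 with doublets kept and 0 to 4 with each library left out. Over all genes, the section calls were 66 with library size alone, 427 with DESeq2, 287 with no filter and 1 to 271 with a section left out; the nuclei calls were 449 with DESeq2; and the age calls were 8 with DESeq2, 23 with no filter, 0 with no sex term, 0 with doublets kept and 0 to 53 with a library left out. With each library left out, all-gene calls ran from 856 to 2114 for muscle against mural, 2244 to 3887 for muscle against fibroblast-like, 2008 to 3631 for mural against fibroblast-like and 3695 to 5773 for Schwann-like against immune-like cells. No called gene changed sign. Uncalled genes did: Synm between sections with library size alone (-0.0085) and between ages with doublets kept (0.0499), and Lmod1 between muscle and mural cells with DESeq2 (-0.45). With a library or section left out, log2 estimates between sections ran from -0.18 to 0.63 for Des, -0.0312 to 0.46 for Synpo2, -0.17 to 0.30 for Synm, -0.31 to 0.26 for Cnn1, -0.0588 to 0.44 for Tagln, -0.0094 to 0.42 for Myh11 and -0.29 to 0.21 for Acta2. Between muscle and mural cells they ran from -0.38 to 1.18 for Acta2 and -0.61 to 0.74 for Lmod1, and between ages from -0.34 to 0.17 for Synm and -0.66 to 0.34 for Synpo2. With the replicate number of the bulk labels as a block, 10 of 10 genes and 10011 rather than 9798 genes in all were called. The deviations of same-numbered libraries correlated at 0.295, 0.395 and -0.052, and intact library 1 lay closest to dissociated library 3 (0.311). With 3 libraries in a group such correlations cannot decide whether the numbers pair the libraries. Library size alone moved the median of all bulk genes from -0.03 to -0.14. Leaving out a cell library from the comparison with nuclei was not run, since 1 library against 1 would remain. Few UMIs lay behind Cnn1, Lmod1 and Synpo2 in the second 12-month library (5, 12 and 17) and in the 3-month library (20, 33 and 37), which limits their levels there.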
